A study of Mus musculus with 32 samples.

Results

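Cytochrome c oxidase (CcO) is complex IV of the mitochondrial respiratory chain, and the genes described here encode its ubiquitous nuclear subunits. The members were the 10 genes Cox4i1, Cox5a, Cox5b, Cox6a1, Cox6b1, Cox6c, Cox7a2, Cox7b, Cox7c and Cox8a, found by symbol among the 22337 genes of the deposited tables. All 10 were measured in every library, and all 10 passed the filter on low values in every tissue. RNA-seq was performed on hippocampus, on whole meninges and on meningeal lymphatic endothelial cells (mLECs) sorted from the meninges of male mice at 6 months of age. Hippocampus was taken from 4 WT mice, 4 5xFAD mice and 4 5xFAD+L mice, meninges from 4, 3 and 3 such mice, and mLECs from 4, 3 and 3 such mice. 5xFAD mice carry human transgenes with familial Alzheimer's disease mutations under the neuronal Thy1 promoter, and 5xFAD+L mice are 5xFAD mice that received near-infrared light through the scalp in repeated sessions under isoflurane. All mice were on the C57BL/6J background. According to the study's methods, WT mice were non-carrier littermates, untreated control mice went through the same anaesthesia and shaving under indoor lighting, and each library came from the tissue or sorted cells of a single mouse.

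CcO takes electrons from cytochrome c, passes them to oxygen and pumps protons across the inner mitochondrial membrane. Its catalytic core, with the heme and copper centres, is built from subunits encoded by mitochondrial DNA (mt-Co1, mt-Co2 and mt-Co3), and the nuclear subunits surround and regulate this core. CcO absorbs red and near-infrared light and is widely proposed as its acceptor in mitochondria, and brain tissue holds much of it because neurons depend on oxidative metabolism.

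The nuclear subunits are spread over 9 chromosomes, and the pair on chromosome 9, Cox5a and Cox7a2, lies far apart. On GRCm38, Cox4i1 lies at chr8:120668222-120674207, Cox5a at chr9:57521274-57532426, Cox5b at chr1:36691449-36693681 and Cox7b at chrX:106015700-106022450, all on the plus strand. The other genes lie on the minus strand, Cox6a1 at chr5:115345642-115348981, Cox6b1 at chr7:30616861-30626151, Cox6c at chr15:35925886-35938246, Cox7a2 at chr9:79755361-79759878, Cox7c at chr13:86044816-86046904 and Cox8a at chr19:7215153-7217616. All 10 are annotated as protein-coding genes.

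The promoters of 4 of these genes are shown as a description. The levels of the genes moved together between libraries, as described further on, and a part of the promoters in this was not tested. The sequences are from RefSeq on GRCm38.p6, whose promoter table held 8 of the 10 genes and did not list Cox4i1 or Cox6c. Each line gives the 170 bases before the start in RefSeq, 5′ to 3′ on the strand of the gene. RefSeq and GENCODE place some starts differently, so that 109 bases of the stretch of Cox7c, 37 of Cox6b1 and 23 of Cox6a1 lie inside the gene as positioned above, and 0 of Cox8a. Capitals mark matches to any of 5 short motifs on either strand: GCATGCGC (NRF1, nuclear respiratory factor 1), CCGGAAG (the ETS family, which includes GABP), AAGATGGC (YY1), GGGCGG (Sp1) and CCAAT (the CCAAT box).
Cox6a1: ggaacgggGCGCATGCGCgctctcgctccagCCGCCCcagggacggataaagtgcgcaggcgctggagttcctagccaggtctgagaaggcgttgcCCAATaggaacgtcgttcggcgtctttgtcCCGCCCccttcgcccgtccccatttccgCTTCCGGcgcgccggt
Cox6b1: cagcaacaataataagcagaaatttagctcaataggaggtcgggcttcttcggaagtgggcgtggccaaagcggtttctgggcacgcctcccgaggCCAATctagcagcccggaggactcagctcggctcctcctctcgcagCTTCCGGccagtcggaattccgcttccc
Cox7c: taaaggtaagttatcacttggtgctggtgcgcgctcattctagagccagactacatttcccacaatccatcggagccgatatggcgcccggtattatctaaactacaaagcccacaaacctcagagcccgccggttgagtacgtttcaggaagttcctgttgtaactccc
Cox8a: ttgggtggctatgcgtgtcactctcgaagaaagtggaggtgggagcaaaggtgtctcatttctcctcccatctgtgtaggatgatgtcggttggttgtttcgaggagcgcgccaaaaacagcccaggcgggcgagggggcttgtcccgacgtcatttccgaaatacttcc
These stretches lie at chr5:115348959-115349128, chr7:30626115-30626284, chr13:86046796-86046965 and chr19:7217617-7217786, all on the minus strand. In Cox6a1 the capitals mark 2 overlapping NRF1 matches, 1 on each strand, with 2 Sp1 matches, a CCAAT box and an ETS match. The stretches of Cox7c and Cox8a held none of the 5, and in Cox8a an ETS match crosses the RefSeq start itself. Cox6a1 is shown for its number of matches, Cox6b1 as the other gene with both a CCAAT box and an ETS match close to its start, Cox7c for the largest fold change of the 10 genes with light in hippocampus and in meninges, and Cox8a for the highest FPKM in hippocampus.

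Over windows of 300 bases, from 250 before to 50 after the start, the NRF1 match was present in 1 of the 8 genes (Cox6a1) and in 2.71% of all 32851 windows. The ETS match was present in 3 of 8 (Cox6a1, Cox6b1 and Cox8a) and in 8.86% of all windows, and the CCAAT box in 4 of 8 (Cox6a1, Cox6b1, Cox7b and Cox8a) and in 37.4%. The Sp1 match was present in 3 of 8 (Cox5a, Cox6a1 and Cox7a2) and in 35.7% of all windows, and the YY1 match in 0 of 8 and 2.75%. The G and C content of the 8 windows ranged from 43.3% in Cox7b to 65.0% in Cox5a, against a median of 52.7% over all windows.

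Hippocampus libraries held between 13952825 and 23856476 counts, meninges libraries between 6601143 and 14708202, and mLEC libraries between 14231415 and 24207326, and the lowest count of any member in a library was 482, for Cox7b. The 10 genes together took between 0.431% and 0.784% of the counts in hippocampus, between 0.377% and 0.874% in meninges and between 0.120% and 0.361% in mLECs. Counts that were not whole numbers, which arise where reads are shared with similar sequences, occurred in 23 of 32 libraries for Cox6c, 9 for Cox5b, 2 for Cox4i1 and none for the other 7 genes. The tissues were checked against marker lists. In 2 WT mLEC libraries (replicates 2 and 4) the summed FPKM of 7 lymphatic endothelial markers was 37.97 and 55.71, with Lyve1 and Pdpn at 0, whereas it ranged from 1156 to 9718 in the other 8. The summed FPKM of 5 blood endothelial markers ranged from 598 to 3685 over the mLEC libraries. It exceeded the lymphatic sum in those 2 WT libraries and in 5xFAD replicates 1 (1159 against 1156) and 2 (2347 against 1684). In the mLEC library of 5xFAD replicate 4, 5 red blood cell markers summed to 12368 FPKM, against at most 511 in the other 9. Whole meninges also held markers of leukocytes, neurons, red blood cells and the pineal gland in every library. In these bulk libraries, fewer cells of a type and less RNA per cell cannot be told apart.

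The first question was how much mRNA of each subunit gene the tissues hold. Subunit protein, assembled enzyme and CcO activity were not measured in these libraries. Levels are compared between genes as FPKM, a fragment count scaled to the length of the transcript and to the size of the library. In hippocampus, Cox8a, the smallest subunit, had the highest mean of 1997 ± 341 FPKM (SD, n = 12 over the 3 groups). Cox4i1, the subunit IV isoform that binds ATP, followed at 1787 ± 204, and Cox6a1, the ubiquitous isoform of a subunit at the contact of the CcO dimer, at 1394 ± 160. Cox8a exceeded Cox4i1 in 10 of 12 libraries, and Cox4i1 exceeded Cox6a1 in 12 of 12. Cox6c (1037 ± 247) and Cox6b1 (876 ± 153), a subunit on the intermembrane side, held the middle of the order. Cox7a2 (554 ± 108), Cox7c (502 ± 133) and Cox5b (495 ± 67.3), a zinc-binding subunit on the matrix side, had overlapping ranges. Within a library, Cox7a2 exceeded Cox7c in 10 of 12, and Cox7c exceeded Cox5b in 7 of 12. Cox5a (384 ± 37.1) and Cox7b (241 ± 41.9) had the lowest means, and Cox5a exceeded Cox7b in 12 of 12 libraries.

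In meninges the order differed at the top. Cox4i1 was the highest in all 10 libraries, at 2566 ± 730 FPKM (SD, n = 10 over the 3 groups), and Cox8a the second in all 10, at 1583 ± 337. Cox6a1 (1135 ± 262), Cox6c (1126 ± 307) and Cox6b1 (1007 ± 189) had overlapping ranges. Within a library, Cox6a1 exceeded Cox6c in 7 of 10, and Cox6c exceeded Cox6b1 in 8 of 10. Cox7b was again the lowest on average (273 ± 58.2). Within a library, Cox8a stood at a median of 113% of Cox4i1 in hippocampus (91.6% to 123%) and 63.5% in meninges (45.8% to 90.4%), so these ranges did not overlap.

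The mLEC libraries have a table of their own, so their levels are set beside the others without a test. Cox4i1 led at 972 ± 308 FPKM (SD, n = 10 over the 3 groups), followed by Cox6a1 at 679 ± 242 and Cox6b1 at 540 ± 196. Cox8a followed at 294 ± 117, a median of 29.0% of Cox4i1 in the same library (19.3% to 38.6%). Cox6c stood at a median of 18.6% of Cox4i1 in mLECs, against 58.1% in hippocampus and 43.4% in meninges, and Cox7b at 5.36%, 13.9% and 11.1%. Cox7a2, Cox5b, Cox6c and Cox5a had means between 152 and 214 FPKM and changed places from library to library, and Cox7b was the lowest at 57.5 ± 36.2. The plot of FPKM by library shows these orders.

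**Figure D1:**
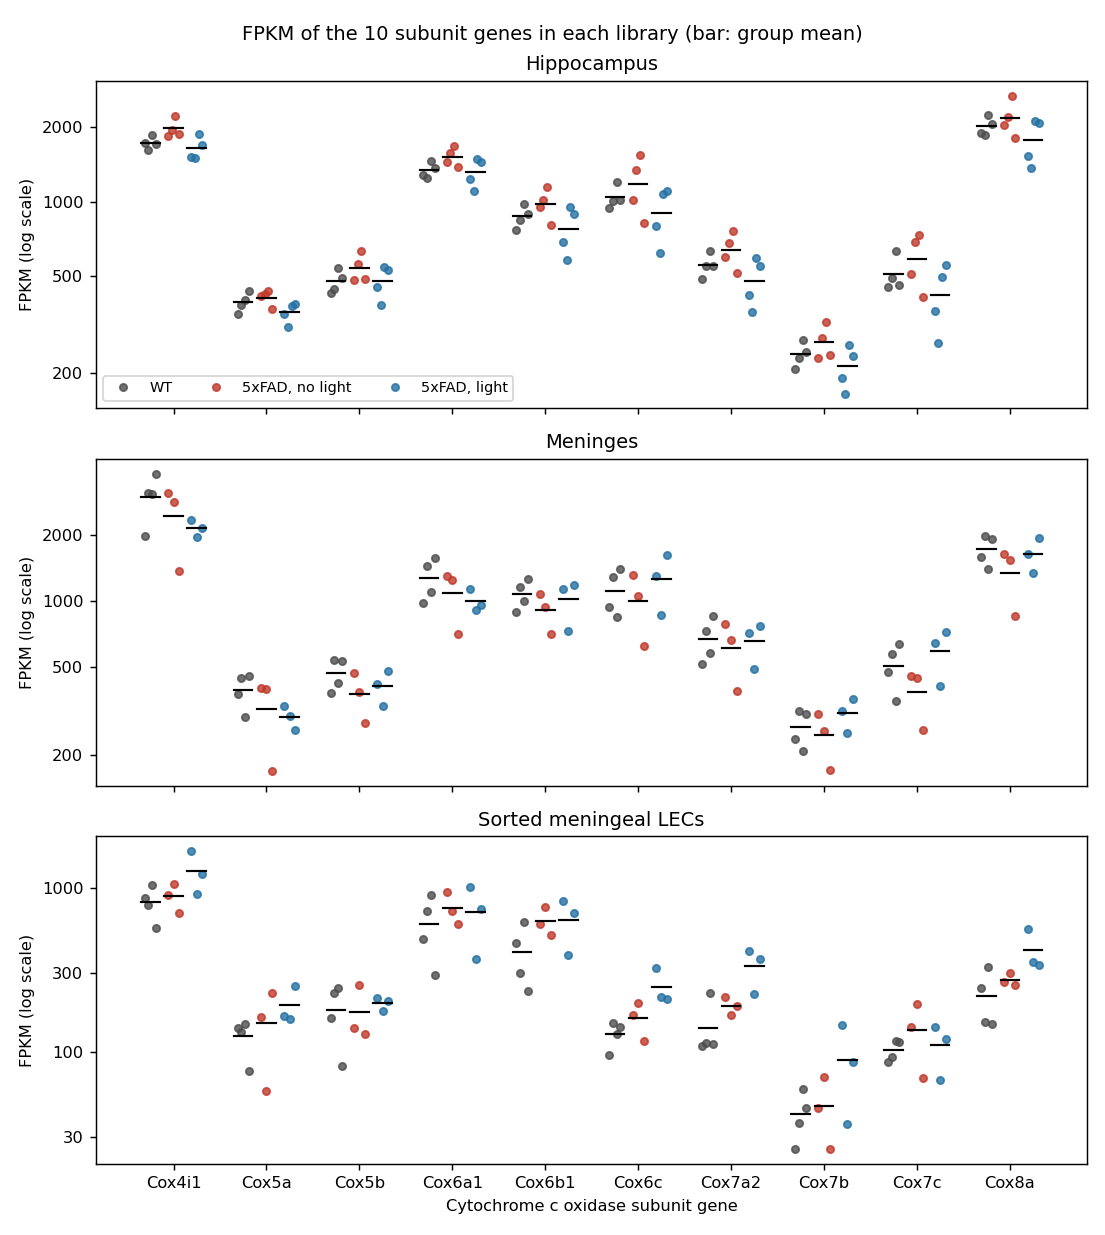
FPKM (log scale) of the 10 subunit genes in every library of hippocampus, meninges and sorted mLECs. Points are libraries, coloured by group, and bars are group means. Cox8a and Cox4i1 lead in hippocampus and Cox4i1 alone in meninges, and in each tissue Cox7b has the lowest mean.

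The genes moved together from library to library. After the group means were subtracted, Pearson's r of log2(FPKM + 1) between members had a median of 0.935 over the 45 pairs in hippocampus (0.584 to 0.992, 12 libraries) and 0.88 in meninges (0.569 to 0.981, 10 libraries). These points share libraries and their depth, so r is given as a description, and the 10 genes are not 10 independent readings of a condition. In hippocampus, the genes outside the members whose deviations were most like the mean of the members were Atpif1 (r = 0.992), Atp5j (0.990), Rps19 (0.987), Atp5h (0.984) and Rpl31 (0.983), over 12 libraries. Atpif1 encodes the inhibitor of ATP synthase, Atp5j and Atp5h encode ATP synthase subunits, and Rps19 and Rpl31 encode ribosomal proteins. In meninges they were Mif (0.994), a cytokine, Ubl5 (0.984), a ubiquitin-like protein, Atp5h (0.981), Dnajc15 (0.980), a mitochondrial co-chaperone, and Uqcrq (0.975), a subunit of complex III, over 10 libraries. The median r over all other tested genes was -0.128 in hippocampus and -0.083 in meninges. For mt-Co1, mt-Co2 and mt-Co3 the median r was 0.782 in hippocampus and -0.220 in meninges. Among marker lists in meninges, the median r was -0.672 for endothelial, -0.669 for oligodendrocyte, -0.618 for astrocyte and -0.576 for fibroblast markers, and 0.461 for pineal and 0.412 for red blood cell markers, and the part of cell content in the shared movement was not tested.

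Single libraries held the extremes of all members at once. In hippocampus all 10 genes were highest in 5xFAD replicate 3 and lowest in 5xFAD+L replicate 2, and in meninges all 10 were lowest in 5xFAD replicate 4. The sum of the 10 FPKM values was 12164 in that highest hippocampus library and 6638 in the lowest, and 5529 in that meninges library against 7581 to 12723 in the other 9. Counts from the 13 mitochondrially encoded genes took 10.7% in hippocampus 5xFAD replicate 3 (4.19% to 7.31% in the other 11) and 9.38% in meninges 5xFAD replicate 4 (3.40% to 7.07% in the other 9). The share was thus the highest of its tissue where the members were highest in hippocampus and where they were lowest in meninges. That meninges library also stood apart in its markers, with sums of 74.04 FPKM for pineal (242 to 697 in the other 9), 72.77 for endothelial (24.33 to 60.41) and 2118 for fibroblast markers (937 to 2095). The part of RNA quality or cell content in these extremes was not tested.

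**Figure D2:**
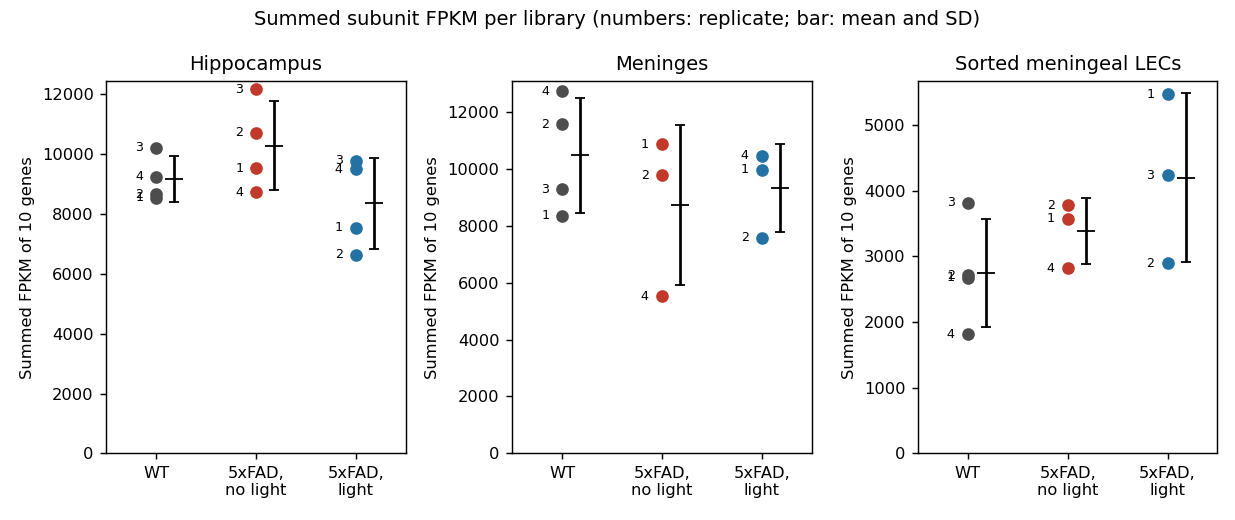
Summed FPKM of the 10 subunit genes in each library (points, with replicate numbers as in the labels), with the mean and SD of each group (bars). The groups overlap in every tissue, and meninges 5xFAD replicate 4, at 5529, is the lowest of its tissue.

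The study asked whether light changes the hippocampus and meninges of 5xFAD mice, and CcO is central to that question as the proposed acceptor of the light. In hippocampus, all 10 genes had lower levels in 5xFAD+L than in untreated 5xFAD mice, by small amounts, and none was called by edgeR. Here and below, a gene was called where its adjusted p value in edgeR's quasi-likelihood test was below 0.05. The median log2 fold change of the 10 genes was -0.31, against -0.02 over all 12981 genes tested, of which 52.5% were lower and 0.455% were called. At an unadjusted p value below 0.05 there were 2 of the 10 genes, against 2382 of the 12981. DESeq2 and limma also called 0 of the 10 genes, where they called 641 and 60 of all genes.

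Cox4i1 had FPKM values of 1844, 1959, 2236 and 1889 in untreated and 1514, 1497, 1875 and 1704 in light-treated 5xFAD mice. A single light-treated library, replicate 3, reached into the untreated range. The log2 fold change was -0.27 ± 0.11 (SE), with an unadjusted p of 0.0316 and an adjusted p of 0.226 by edgeR. Cox7a2, a subunit at the dimer contact with a muscle counterpart, had values of 595, 677, 756 and 514 in untreated and 416, 355, 587 and 546 in light-treated mice. Light-treated replicates 1 and 2 lay below the lowest untreated library, and replicates 3 and 4 lay within the untreated range. Its log2 fold change was -0.41 ± 0.18 (SE; edgeR, unadjusted p = 0.0346, adjusted p = 0.235).

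The largest difference was that of Cox7c, a small subunit with a single membrane span, with values of 508, 686, 730 and 409 in untreated and 360, 266, 493 and 554 in light-treated mice. Again light-treated replicates 1 and 2 were the lowest libraries, and the groups overlapped. The log2 fold change was -0.47 ± 0.24 (SE; 95% confidence interval -0.99 to 0.04; edgeR, adjusted p = 0.306). Cox8a had values of 2047, 2201, 2688 and 1818 in untreated and 1535, 1371, 2131 and 2091 in light-treated mice (log2 fold change -0.29 ± 0.17, SE, edgeR, adjusted p = 0.373). The smallest difference was that of Cox5b, at -0.18 ± 0.14 (SE, edgeR, adjusted p = 0.531), and for none of the 10 genes were the groups separate.

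The median of the 10 genes stayed below 0 without any 1 library, between -0.43 and -0.21. It was -0.21 without 5xFAD replicate 3 and -0.21 without 5xFAD+L replicate 2, the libraries with the extremes. Fibroblast markers summed to 23.76 to 104.45 FPKM in untreated and 8.72 to 25.59 in light-treated hippocampus. Neuron markers summed to 3230 to 4107 FPKM in untreated and 4126 to 4635 in light-treated hippocampus, without overlap. The part of cell content in the result was not tested.

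The mitochondrially encoded core subunits, which form the catalytic centre, had values near 0. mt-Co1, mt-Co2 and mt-Co3 had a median log2 fold change of -0.06 (range -0.10 to 0.10), with 2 lower, 1 higher and 0 of 3 called. Of 8 tested isoforms and further subunits of CcO, 7 were lower, 1 higher and 0 called (median -0.60). Among 10 genes of complex III and cytochrome c, the donors of electrons to CcO, 10 were lower and 0 called (median -0.16). Of 27 tested CcO assembly and copper or heme delivery genes, 20 were lower, 7 higher and 0 called (median -0.08). Of 12 regulators of nuclear respiratory genes, such as Nrf1, Gabpa and Ppargc1a, 5 were lower, 7 higher and 0 called (median 0.06).

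Between untreated 5xFAD and WT hippocampus, all 10 genes were higher in 5xFAD, with 0 of 10 called, against 8.54% of the 12981 genes. The untreated 5xFAD libraries are shared with the comparison above, so these directions are not separate evidence. The median was 0.19 (0.02 over all genes, of which 52.1% were higher), with a range from 0.07 for Cox5a to 0.22 for Cox7c. Without any 1 library the median lay between 0.10, without 5xFAD replicate 3, and 0.26, without WT replicate 3, and the value of Cox7c between 0.09 and 0.36. None of the 10 had an unadjusted p below 0.05, against 3110 of all genes, and DESeq2 and limma called 0 of 10 (1721 and 1009 of all genes). Cox4i1 had values of 1728, 1618, 1856 and 1720 in WT mice, and a single untreated 5xFAD library, replicate 1, fell within that range. Its log2 fold change was 0.20 ± 0.11 (SE, edgeR, adjusted p = 0.285). Cox7c had values of 448, 487, 629 and 458 in WT mice, all inside the range of the untreated 5xFAD mice (log2 fold change 0.22 ± 0.24, SE, edgeR, adjusted p = 0.629). The 3 core subunits were higher (median 0.31, 0 called), and of the complex III and cytochrome c genes 6 were higher and 4 lower (median 0.05, 0 called). Leukocyte markers summed to 461 to 913 FPKM in untreated 5xFAD and 97.4 to 113 in WT hippocampus, and neuron markers to 3230 to 4107 and 4416 to 4852. The part of this difference in cell content in the result was not tested.

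The remaining comparison in hippocampus was that of light-treated 5xFAD with WT mice. The median of the 10 genes was -0.15, with 9 lower, 1 higher and 0 of 10 called, against 3.59% of all genes. None of the 10 had an unadjusted p below 0.05 (2162 of all genes), and DESeq2 and limma called 0 of 10 (873 and 404 of all genes). Without any 1 library the median lay between -0.28, without light-treated replicate 3, and -0.04, without light-treated replicate 2. The largest difference was again that of Cox7c, at -0.26 ± 0.24 (SE, edgeR, adjusted p = 0.63). The 4 WT libraries varied least, with a median coefficient of variation over the 10 genes of 10.4%, against 15.3% in untreated and 21.0% in light-treated 5xFAD mice.

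In meninges, the same comparison of light-treated with untreated 5xFAD mice did not give 1 common direction. Of the 10 genes, 7 were higher and 3 lower (Cox4i1, Cox5a and Cox6a1), with a median of 0.17 (0.04 over all 14318 genes tested). edgeR called 0 of 10 genes, against 0.014% of all genes (2 genes). None of the 10 had an unadjusted p below 0.05 (1822 of all genes), and DESeq2 and limma called 0 of 10 (79 and 1 of all genes).

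Cox7c had FPKM values of 459, 446 and 258 in untreated and 646, 411 and 727 in light-treated 5xFAD meninges. Light-treated replicates 1 and 4 lay above all 3 untreated libraries and replicate 2 lay within their range. The log2 fold change was 0.64 ± 0.34 (SE; 95% confidence interval -0.08 to 1.37), the largest among the members, and it was not called (edgeR, unadjusted p = 0.0783, adjusted p = 0.437). Cox4i1 had values of 3101, 2831 and 1365 in untreated and 2330, 1947 and 2145 in light-treated meninges. All 3 light-treated libraries lay inside the untreated range (log2 fold change -0.17 ± 0.34, SE, edgeR, adjusted p = 0.853).

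Untreated replicate 4, the library with the lowest levels of all 10 genes, bore on these values. Without it the median of the 10 genes was 0.00 in place of 0.17. Without light-treated replicate 4 it was -0.01, and without light-treated replicate 2 it was 0.39. The log2 fold change of Cox4i1 changed sign, to 0.03, without untreated replicate 1. The log2 fold change of Cox7c ranged from 0.42 to 0.89 when any 1 library was left out.

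The core subunits of meninges had negative values. mt-Co1, mt-Co2 and mt-Co3 were all lower in light-treated mice (median -0.40, range -0.48 to -0.33, 0 of 3 called). mt-Co3 had the largest difference, -0.48 ± 0.32 (SE, edgeR, adjusted p = 0.533). Of 7 tested isoforms and further subunits, 6 were higher, 1 lower and 0 called (median 0.38). Of the complex III and cytochrome c genes, 8 were higher and 2 lower (median 0.09, 0 of 10 called), of 27 assembly genes 21 were higher and 6 lower (median 0.21, 0 called), and of 12 regulators 6 were higher and 6 lower (median -0.04, 0 called).

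Between untreated 5xFAD and WT meninges, all 10 genes were lower in 5xFAD, with a median of -0.27 (0.00 over all genes) and 0 of 10 called. No gene at all was called in this comparison by edgeR (0% of 14318), DESeq2 or limma, and 574 of all genes and 0 of the 10 had an unadjusted p below 0.05. The largest difference was that of Cox7c, with values of 474, 575, 350 and 637 in WT mice (log2 fold change -0.40 ± 0.32, SE, edgeR, adjusted p = 0.987). The untreated 5xFAD values of replicates 1 and 2 lay within the WT range and that of replicate 4 lay below it. Without that library the median of the 10 genes was -0.01. The 3 core subunits were higher (median 0.53), with mt-Co1 at 0.63 ± 0.40 (SE, edgeR, adjusted p = 0.987), a value that ranged from 0.01 to 0.91 when any 1 library was left out. The 10 complex III and cytochrome c genes were all lower (median -0.20, 0 called).

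Between light-treated 5xFAD and WT meninges, 3 of the 10 genes were higher and 7 lower, with a median of -0.05 and 0 of 10 called, against 0.014% of all genes (2 genes). None of the 10 had an unadjusted p below 0.05 (2355 of all genes), and DESeq2 and limma called 0 of 10 (438 and 3 of all genes). The sign of the median turned with single libraries: it was 0.16 without light-treated replicate 2, 0.01 without WT replicate 2, 0.01 without WT replicate 4 and -0.23 without light-treated replicate 4. The members ranged from Cox4i1 at -0.47 ± 0.32 (SE, edgeR, adjusted p = 0.474) to Cox7c at 0.24 ± 0.31 (SE, edgeR, adjusted p = 0.739).

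The difference between the tissues was tested itself, as the light effect in meninges minus that in hippocampus over the 14 libraries of 5xFAD mice. All 10 genes had a positive difference, with a median of 0.51 (0.06 over all 14732 genes tested, of which 53.4% were positive), and edgeR called 0 of 10, against 1.48% of all genes. DESeq2 and limma called 0 of 10 (1116 and 71 of all genes). The range ran from 0.06 ± 0.33 (SE) for Cox5a to 1.09 ± 0.44 (SE) for Cox7c. Cox7c had an unadjusted p of 0.0263 and an adjusted p of 0.182 by edgeR, and it was the only member below 0.05 before adjustment, as were 3038 of all genes. The median was 0.31 without meninges 5xFAD replicate 4, and the difference of Cox5a ranged from -0.24 to 0.24 when any 1 library was left out. The 3 core subunits had negative differences (median -0.41, 0 called).

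**Figure D3:**
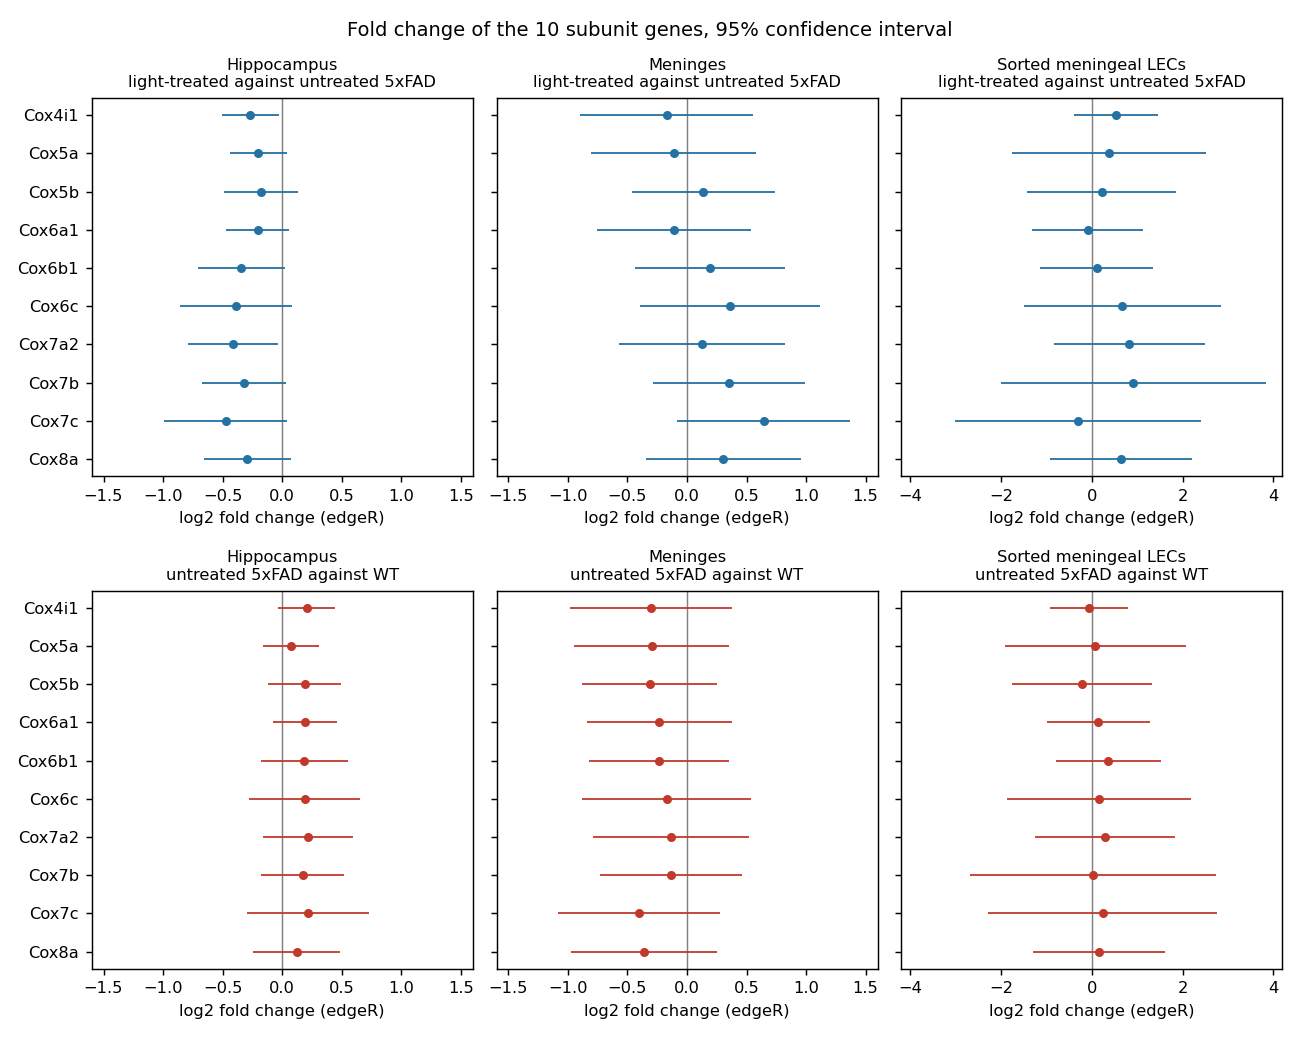
Log2 fold change with its 95% confidence interval (edgeR) of each subunit gene, for light-treated against untreated 5xFAD mice (top) and untreated 5xFAD against WT mice (bottom), with a wider axis for mLECs. In hippocampus the 10 points lie below 0 with light and above 0 in the comparison with WT, and no gene was called in any panel.

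In sorted mLECs, 8 of the 10 genes were at higher levels with light than in the untreated 5xFAD mice and 2 (Cox6a1 and Cox7c) at lower levels, with a median of 0.46 (0.03 over all 8188 genes tested). edgeR called no gene in this comparison (0% of all genes, 0 of 10), with 328 of all genes and 0 of the 10 below an unadjusted p of 0.05. DESeq2 called 357 of all genes and 0 of the 10, and limma called 0. Light-treated replicate 1 held the highest mLEC value of 7 of the 10 genes. Without any 1 library the median of the 10 genes lay between 0.39 and 0.63. The groups did not overlap for 3 of the 10 genes, all higher with light, against 3.55% of all genes.

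These 3 genes were Cox6c, Cox7a2 and Cox8a. Cox6c had FPKM values of 166, 198 and 116 in untreated and 324, 216 and 209 in light-treated mice, so that the lowest light-treated value lay just above the highest untreated one. Cox7a2 had values of 215, 166 and 191 in untreated and 414, 224 and 366 in light-treated mice, and light-treated replicate 2 was again close to the untreated range. Cox8a had values of 265, 302 and 254 in untreated and 561, 352 and 338 in light-treated mice, with light-treated replicate 1 far above the rest.

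Over all tested genes, the replicates of mLECs varied widely. edgeR's biological coefficient of variation, taken over all of them, was 1.89, against 0.198 in hippocampus and 0.35 in meninges. For the members alone, the median coefficient of variation of FPKM ran from 24.4% to 36.8% over the mLEC groups, against 18.2% to 30.9% in meninges. The standard errors of edgeR also draw on the spread over all genes. The log2 fold changes were 0.67 ± 1.01 (SE) for Cox6c, 0.82 ± 0.78 for Cox7a2 and 0.63 ± 0.73 for Cox8a, each with an adjusted p of 1 by edgeR. The largest was that of Cox7b, 0.91 ± 1.36 (SE), whose groups overlapped. The 95% confidence interval of Cox7a2 ran from -0.85 to 2.49. Lymphatic endothelial markers summed to 3079 to 9718 FPKM in light-treated and 1156 to 4490 FPKM in untreated libraries, with overlapping ranges. Among them, the groups did not overlap for Prox1 (log2 fold change 2.68 ± 3.40, SE) and Lyve1 (2.80 ± 2.52), both higher with light. The same held for 3.55% of all genes. Flt4 was the only tested lymphatic marker with a lower level with light (log2 fold change -1.12 ± 0.85, SE), and its groups overlapped. Blood endothelial markers summed to 907 to 1684 FPKM in light-treated and 1159 to 2347 FPKM in untreated libraries. Of these, Flt1 was lower with light without overlap (log2 fold change -0.28 ± 0.37, SE), as were 6.58% of all genes. Endothelial markers shared with blood vessels summed to 411 to 701 and 473 to 662 FPKM. The part of the cell content in the result was not tested. The 3 core subunits were also higher (median 0.56, 0 called), of 10 complex III and cytochrome c genes 7 were higher and 3 lower (median 0.37, 0 called), and of 24 tested assembly genes 9 were higher and 15 lower (median -0.28, 0 called). DESeq2 alone called the assembly gene Cox10 (log2 fold change -26.2, adjusted p = 7.42e-10), and its groups overlapped.

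Against WT mLECs, light-treated 5xFAD mLECs had 8 genes higher and 2 lower, with a median of 0.46. edgeR called 0 of the 10 and 1 of all genes (0.0122%), and 550 of all genes and 0 of the 10 had an unadjusted p below 0.05. DESeq2 called 464 of all genes and limma 3, and both called 0 of the 10. The groups did not overlap for 3 genes, Cox5a, Cox6c and Cox8a, all higher, against 3.64% of all genes. Cox6c had values of 95.2, 148, 129 and 141 in WT mice, and all 3 light-treated values were higher (log2 fold change 0.83 ± 0.93, SE, edgeR, adjusted p = 1). Without any 1 library the median lay between 0.27, without WT replicate 4, and 0.72, without light-treated replicate 2. Without the 2 WT libraries low in lymphatic markers, an alternative chosen after the data were seen, the median was 0.22 and 0 of 10 genes were called.

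Untreated 5xFAD and WT mLECs had a median difference of 0.15, with 8 genes higher, 2 lower and 0 of 10 called, against 0% of all genes. Of all genes, 312 had an unadjusted p below 0.05, none of them a member, and DESeq2 called 185 and limma 0, again with 0 of 10 members. Without any 1 library it lay between -0.01, without WT replicate 4, and 0.33, without WT replicate 3, and without the same 2 WT libraries it was -0.05.

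A further comparison was that of the tissues of WT mice. Here Cox4i1 was 1.66-fold higher in meninges than in hippocampus, and the other 9 members were not called. Several subunits also have an isoform with its own gene, and 6 such genes differed between the tissues, 5 of them by between 4.32-fold and 15.4-fold. The tissues differ in most of their genes: edgeR called 71.1% of the 14144 genes tested, but 1 of the 10 members.

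Cox4i1 had FPKM values of 1982, 3089, 3067 and 3799 in WT meninges and 1728, 1618, 1856 and 1720 in WT hippocampus. All 4 meninges libraries lay above all 4 hippocampus libraries, as was the case for 35.6% of all genes, and for no other member. The log2 fold change was 0.73 ± 0.20 (SE, edgeR, adjusted p = 0.00707), and DESeq2 and limma also called this gene alone among the members. The remaining members ranged from Cox8a at -0.28 ± 0.17 (SE; 95% confidence interval -0.67 to 0.10; edgeR, adjusted p = 0.163) to Cox6b1 at 0.24 ± 0.17 (SE; 95% confidence interval -0.14 to 0.61; edgeR, adjusted p = 0.236). The median of the 10 genes was 0.01 (-0.08 to 0.18 without any 1 library), against 0.07 over all genes.

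Of 9 isoform and further subunit genes, 8 were tested, 4 rose and 2 fell in meninges against hippocampus. Cox6b2, known as a testis isoform of subunit VIb, was 15.4-fold higher (log2 fold change 3.94 ± 0.37, SE, edgeR, adjusted p = 5.04e-06). Cox8b, the heart and muscle isoform of subunit VIII, was 11.7-fold higher (3.54 ± 0.71, SE, adjusted p = 0.0011), and Cox7a1, the heart and muscle isoform of subunit VIIa, 7.67-fold higher (2.94 ± 0.34, SE, adjusted p = 2.47e-05). For Cox8b the log2 fold change was 2.96 without WT meninges replicate 4 and 4.36 without WT hippocampus replicate 2. Cox4i2, the isoform of subunit IV known for its induction by low oxygen, was 5.11-fold higher (2.35 ± 0.26, SE, adjusted p = 1.65e-05). Cox6a2, a muscle isoform that is also known from some interneurons, was 4.32-fold lower (-2.11 ± 0.37, SE, adjusted p = 0.000447). Cox7b2 also fell (adjusted p = 0.0185 by edgeR), from 0.86 to 1.98 FPKM in WT hippocampus to between 0 and 0.59 FPKM in WT meninges, where no library held more than 3 counts, so no fold is given.

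These isoforms remained a minor part beside their ubiquitous partners. Cox6b2 made up 7.14 ± 0.99% of the summed FPKM of Cox6b1 and Cox6b2 in WT meninges and 0.612 ± 0.281% in WT hippocampus (SD, n = 4 each). Cox7a1 made up 3.86 ± 0.80% of its pair with Cox7a2 in WT meninges and 0.632 ± 0.125% in WT hippocampus, and Cox8b 2.99 ± 1.93% and 0.234 ± 0.227% of its pair with Cox8a. Cox4i2 made up 0.432 ± 0.103% and 0.136 ± 0.031% of its pair with Cox4i1, and Cox6a2 0.181 ± 0.072% and 0.717 ± 0.145% of its pair with Cox6a1. In mLECs, Cox6a2, Cox6b2, Cox7b2 and Cox8b were listed at 0 in all 10 libraries.

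The other tested subunit genes were not called. Ndufa4, a subunit first assigned to complex I and now counted with CcO, had a log2 fold change of 0.39 ± 0.18 (SE, edgeR, adjusted p = 0.0748), and Cox7a2l had one of -0.03. Of the core subunits, mt-Co1 fell by 0.85 on the log2 scale (SE 0.26; edgeR, adjusted p = 0.0133), and mt-Co2 and mt-Co3 were not called (-0.12 and 0.03).

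**Figure D4:**
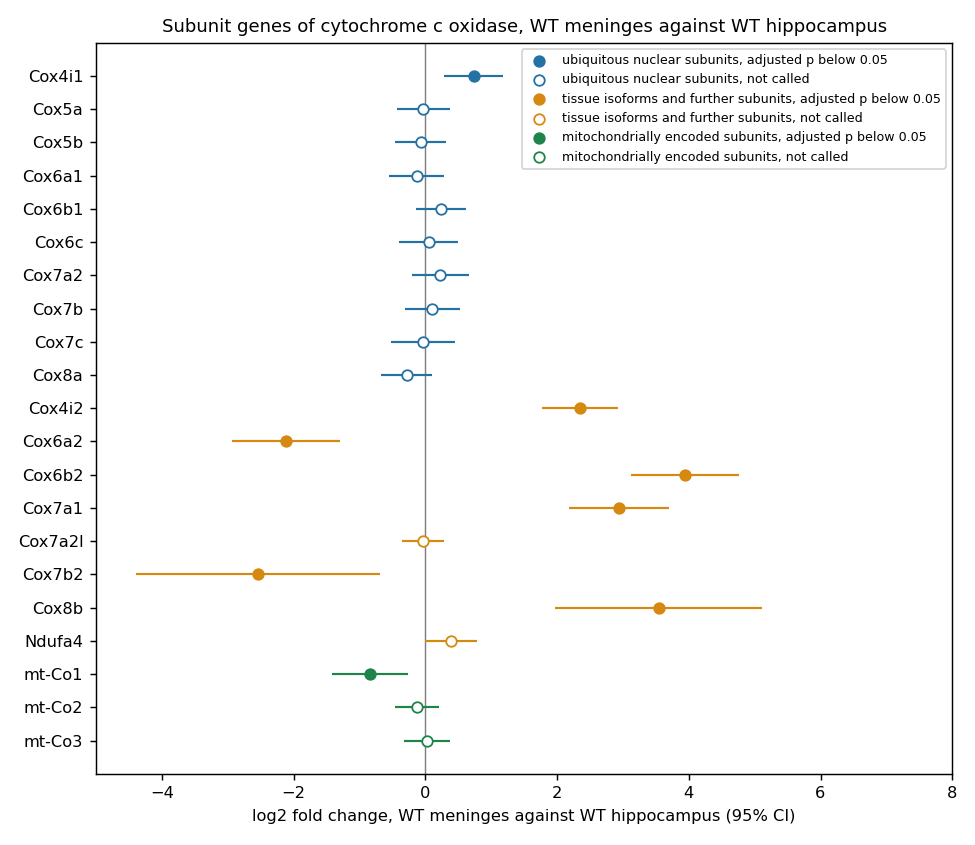
Log2 fold change of CcO subunit genes in WT meninges against WT hippocampus with its 95% confidence interval (edgeR); filled points are genes with an adjusted p below 0.05. The ubiquitous subunits lie near 0 apart from Cox4i1 at 0.73, and 5 isoform genes lie between -2.11 and 3.94. Cox7b2 is also filled, but no WT meninges library held more than 3 of its counts.

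The neighbours of CcO in the respiratory chain differed between the tissues in both directions. Against the 71.1% of all genes that were called, 9 of 10 complex III and cytochrome c genes, 11 of 27 assembly genes and 6 of 12 regulators were called, and nothing particular to these groups is read from the counts. Of the complex III and cytochrome c genes, 5 rose and 4 fell in meninges. Uqcr11 (log2 fold change 0.95 ± 0.23, SE), Uqcrb (0.86 ± 0.18), Uqcrh (0.79 ± 0.18), Uqcrq (0.76 ± 0.21) and Uqcr10 (0.60 ± 0.23), small subunits of complex III, were higher, and Uqcr10 was not called without the filter on low values or in 5 of the 8 fits without 1 library. Uqcrc2 (-0.73 ± 0.18), a core protein of complex III, Cycs (-0.72 ± 0.16), cytochrome c itself, Uqcrfs1 (-0.67 ± 0.16), the iron-sulfur protein, and Cyc1 (-0.50 ± 0.14), cytochrome c1, were lower. Of 27 assembly genes, 5 rose, led by Cmc2 (1.55 ± 0.23, SE) and Cox20 (1.31 ± 0.24), and 6 fell, led by Cox15 (-1.57 ± 0.22), which makes heme A, and Coa5 (-1.08 ± 0.17). Of 12 regulators, 3 rose, among them Gabpb2 (1.63 ± 0.18, SE), a partner of the ETS factor GABPA, and Tfb1m (0.89 ± 0.21), and 3 fell, among them Ppargc1b (-0.85 ± 0.21), a coactivator of mitochondrial biogenesis.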

How the data were processed

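RNA-seq libraries were made with Smart-seq2 and oligo-dT priming. The authors deposited, for each gene and library, estimated counts (expected counts of RSEM, which need not be whole) and FPKM. The submitters' processing notes name mm10, Trimmomatic, HISAT2, StringTie and DESeq2 without their roles, whereas the study's methods name fastp and RSEM, and the annotation version is not given in the sources used here. Reads shared between similar genes could move counts between them. Gene positions, and the symbols of 76 genes, were taken by ID from GENCODE vM21 on GRCm38, and 22232 of 22337 IDs were found there.

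Expected counts were rounded to whole numbers and entered edgeR's quasi-likelihood test (edgeR 4.0.16, R 4.3.3) after TMM normalization, in 1 fit per tissue over its 3 groups. The comparison of WT tissues and the difference of the light effects used only the libraries named in the text. Genes with FPKM of at least 1 in at least 3 libraries of a fit were tested, the Benjamini-Hochberg adjustment ran over all of them, and adjusted p values below 0.05 were called. The edgeR step was also run on simulated counts with known changes, and its recovery of them is not given here. DESeq2 1.42.0, limma 3.58.1 on log2(FPKM + 1) and log2(FPKM + 0.1), DESeq2 size factors in edgeR, no filter, a 2-fold limit, 2 groups alone, a replicate block and each library left out were the alternatives. Members and lists were chosen with earlier results of these data known. Every member could be named, as could the genes of each list, limited to called genes in lists of more than 10. The genes most like the members were, per tissue, the 5 with the highest Pearson correlation with the members' mean, predicted genes left out. The labels do not say that replicates came from different mice, which only the study's methods state. The mLEC table was normalized separately and was tested only within itself.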

Additional observations from a re-analysis of the deposited data

Results flagged for a closer look

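A single value stood apart from the rest of its group. In WT mLECs, Cox7a2, a subunit at the CcO dimer contact, had 229 FPKM in replicate 3 and 108, 113 and 111 FPKM in the other 3 libraries. The gap from the highest to the nearest library was 0.959 of the whole range of the group, above Dixon's limit for 4 samples. Of 55 such values tested, 1 passed this limit, where chance passes about 1 in 20. The lymphatic marker sum was 4353 FPKM in that library and 6736, 37.97 and 55.71 FPKM in replicates 1, 2 and 4, and its part in the value was not tested.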

How the results depend on the processing

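The members' median log2 fold change moved by less than the replicate spread in all 86 fits without 1 library and all 77 other alternatives. That spread was an SD of 0.222 in hippocampus, 0.350 in meninges and 0.359 in mLECs. It exceeds several of the medians, so their sign could turn within it. Without 1 library, the meninges median ran from -0.01 to 0.39 for light against untreated 5xFAD. For light against WT meninges it ran from -0.23 to 0.16. The number of members called differed from that reported only for WT meninges against WT hippocampus, where a 2-fold limit left 0. Counts over all genes depended on the tool, and the cause was not tested. In hippocampus, light against untreated 5xFAD gave 35 genes with a 2-fold limit, 104 without a filter, 641 by DESeq2, 1 with the 2 groups alone and 0 to 269 without 1 library. 5xFAD against WT gave 556 with a 2-fold limit, 1721 by DESeq2 and 637 to 1685 without 1 library, and light against WT gave 306, 873 and, with the 2 groups alone, 1075. In meninges, light against untreated 5xFAD gave 79 by DESeq2, 1 by limma at either pseudocount and 0 to 2 without 1 library, and light against WT gave 16 without a filter, 438 by DESeq2 and 1 to 134 without 1 library. In mLECs, light against untreated 5xFAD gave 15 without a filter and 357 by DESeq2, 5xFAD against WT 9 and 185, and light against WT 45 and 464, 3 and 0 by limma at the larger and smaller pseudocount, 0 without the 2 WT libraries low in lymphatic markers (chosen after the data were seen) and 0 to 2 without 1 library. The difference of the light effects gave 1116 by DESeq2, 71 and 74 by limma and 27 to 514 without 1 library. Of the named genes, Cox4i1 in meninges with light ranged from -0.46 to 0.0259 without 1 library, and the tissue difference of Cox5a from -0.24 to 0.24, with -0.01 and -0.05 the other negative values. Ndufa4 and Uqcr10 changed sides of the threshold under some alternatives.

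The correlations of the deviations of same-numbered libraries lay between -0.244 and 0.093 (hippocampus), -0.316 and 0.256 (meninges), -0.040 and 0.014 (mLECs) and, between WT hippocampus and WT meninges, -0.026 and 0.203 (median 0.068, against -0.049 for other numbers). In no set was every pair above 0.1, so the numbers were not read as pairs. With the replicate number as a block, the members' median was -0.32 in hippocampus, 0.15 in meninges and 0.33 in mLECs for light against untreated 5xFAD, and all-gene counts were 0 for both light comparisons in meninges and 3 for light against WT mLECs.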
